A study of Mus musculus with 33 samples.

Results

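The cytochrome P450 genes of families 1 to 3 were examined in livers of Nlrp3 knock-in and wild-type mice fed control chow or a diet with an inhibitor of the kinase ASK1. Members were taken by gene symbol: every gene of the deposited table whose symbol was Cyp followed by 1, 2 or 3, a subfamily letter and a number was kept if its counts summed to at least 10 over the 33 libraries. This gave 53 of 19169 genes, in the subfamilies Cyp1a (2 genes), Cyp1b (1), Cyp2a (4), Cyp2b (3), Cyp2c (15), Cyp2d (10), Cyp2e, Cyp2f, Cyp2g, Cyp2r, Cyp2s and Cyp2u (1 each), Cyp2j (4) and Cyp3a (8). Of the 54 genes with such a symbol, Cyp2j11 was left out with 4 counts in all. Of the 53 members, 50 passed the filter on low counts used for all genes and were tested. Cyp2c53-ps, Cyp2c65 and Cyp2d34 did not pass, with 17, 12 and 24 counts over all libraries.

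The enzymes of these families are haem proteins of the endoplasmic reticulum that take electrons from P450 oxidoreductase and insert oxygen into foreign compounds, steroids, fatty acids and bile acids. Hepatocytes make most of them, and many respond to the receptors AHR (family 1), CAR (Cyp2b) and PXR (Cyp3a) or differ between the sexes in adult mice through the pattern of growth hormone release. In mice the Cyp2a, Cyp2b, Cyp2c, Cyp2d and Cyp3a subfamilies hold clusters of similar genes, some of them near-identical copies, so single members and subfamily sums are both given. Many members are known to be lowered in liver during inflammation, which is background here and was not tested.

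The samples were livers of wild-type (WT) mice and of knock-in (KI) mice, the latter described as Nlrp3A350V/+CreT, a tamoxifen-inducible mutant allele of the inflammasome sensor Nlrp3 with an inducible Cre. Each genotype was fed either control chow with placebo or chow holding GS-444217, a selective inhibitor of ASK1 (the kinase Map3k5), for 6 weeks. There were 10 WT control libraries (7 from females), 8 WT libraries on the inhibitor diet (4 from females), 5 KI control libraries (1 from a female) and 10 KI libraries on the inhibitor diet (5 from females), called WT control, WT ASK1i, KI control and KI ASK1i below. The labels give neither ages nor whether WT mice carried Cre or received tamoxifen, nor do they tie every library to its own animal, so the p-values speak only for the scatter among the libraries. Levels are given as CPM, read counts relative to library sizes scaled by the trimmed mean of M-values. Differences are log2 fold changes from edgeR's quasi-likelihood test with sex and the title set (plain number, or number with the letter P) as covariates, with standard errors (SE) and p-values adjusted over 14934 genes. "Called" means an adjusted p under 0.05.

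Libraries held from 28099685 to 40008114 counts. Nlrp3 itself was at 3.03 ± 1.05 CPM (SD, n = 10) in WT control and 11.1 ± 3.45 CPM (SD, n = 5) in KI control libraries. The library labelled KI ASK1i replicate 5 had 2.10 CPM of Nlrp3, against 5.51 to 11.0 CPM in the other KI ASK1i libraries, and also lay with the WT libraries in Alb and in neutrophil and macrophage markers. Results named below whose call changed without it, or whose called value moved by over 1.5-fold, are given with and without it. The summed level of the 7 neutrophil markers tested ran from 3.50 to 16.5 CPM in WT control and from 627 to 3575 CPM in KI control libraries, and all 7 rose. The 7 macrophage markers tested all rose as well (310 to 769 CPM summed in WT control, 1804 to 2249 CPM in KI control). The summed hepatocyte list, which Alb dominates, was at 106968 to 134192 CPM in WT control and 44860 to 68225 CPM in KI control. Alb alone took 8.47% to 11.0% of counts in WT control and 2.12% to 4.16% in KI control libraries. The sum therefore follows Alb and does not show how the other hepatocyte markers moved. Of 6 stellate cell markers 4 rose, of 6 endothelial markers 4 rose and 1 fell, and of 6 cholangiocyte markers 1 rose. Of all genes tested 27.8% rose and 28.9% fell on control chow. Fewer hepatocytes and less P450 RNA per hepatocyte cannot be told apart in these bulk samples, and the part of the other cell types in the results below was not tested. The titles also carry a code from L1 to L8 whose meaning is not stated, and WT control and KI control libraries never shared a code.

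Most members were lower in KI than in WT liver on control chow. Together the 53 members took 2.32% ± 0.184 (SD, n = 10) of all counts in WT control and 0.777% ± 0.161 (SD, n = 5) in KI control libraries. Of 50 members 37 fell and 3 rose (edgeR quasi-likelihood test), where 28.9% of all genes tested fell and 27.8% rose. The median log2 fold change was -1.37 over the members and -0.03 over all genes. On the inhibitor diet 40 members fell and 3 rose (28.8% and 30.3% of all genes), with a median of -1.35 against 0.01 over all genes. With the L code as a covariate, 29 members fell and 2 rose on control chow (15.8% and 18.3% of all genes) and 37 fell and 3 rose on the inhibitor diet (28.0% and 27.9%).

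Sums were taken for 8 subfamilies, Cyp1a, Cyp2a, Cyp2b, Cyp2c, Cyp2d, Cyp2e, Cyp2j and Cyp3a, of which Cyp2e holds 1 gene, and the 6 other subfamilies with 1 gene each are given as genes further on. Of these 8 sums 7 fell on control chow, where 27.4% of all entries of that table fell. The Cyp2b sum fell by 4.83 (log2), the Cyp2e sum by 2.27, Cyp2c by 1.75, Cyp3a by 1.65, Cyp2a by 1.38, Cyp2j by 1.28 and Cyp2d by 0.62. Of the 8, the Cyp1a sum did not pass the test, at 274 ± 109 CPM (SD, n = 10) in WT control and 190 ± 66.2 CPM (SD, n = 5) in KI control. With the L code as a covariate 5 of the 8 sums were called, and the calls of Cyp3a (-0.82, adjusted p = 0.185) and Cyp2d (-0.48, adjusted p = 0.0690) were lost. With the inhibitor 7 of the 8 sums fell (27.5% of all entries fell), and Cyp2d was at -0.19 (adjusted p = 0.132). Without the library labelled KI ASK1i replicate 5 all 8 fell, Cyp2d by 0.27 (adjusted p = 0.0251, edgeR quasi-likelihood), and the Cyp2b sum went from -3.12 to -4.48. The library labelled KI ASK1i replicate 5 lay within the range of the 18 WT libraries in all 8 sums, for example at 826 CPM of Cyp2b where the other 9 KI ASK1i libraries had 10.1 to 66.8 CPM.

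**Figure D1:**
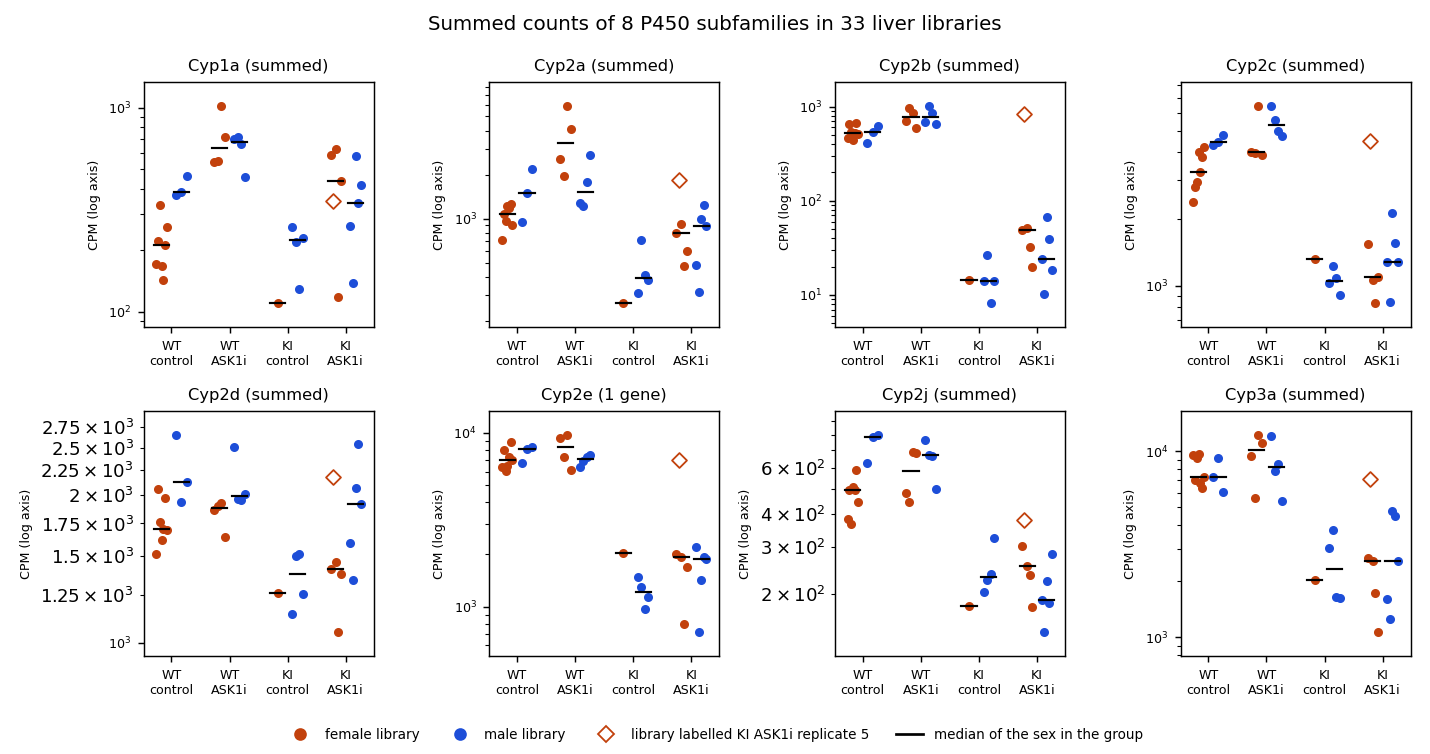
Summed CPM of each subfamily in each library, on a log scale, by group; points are libraries coloured by sex, the open diamond is the library labelled KI ASK1i replicate 5, and lines are the medians of each sex in a group, the diamond included. In the Cyp2b panel the 5 KI control libraries sit between 8.12 and 26.5 CPM, below all 10 WT control libraries (411 to 664 CPM), and the library labelled KI ASK1i replicate 5 sits at 826 CPM.

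Cyp2e1, which oxidises ethanol and turns paracetamol into its toxic metabolite, had the highest level per length of all members, at 4053 ± 596 CPM per kb of transcript (SD, 18 WT libraries). It lies at chr7:140763832-140774977 (mm10). The WT control libraries had 6072 CPM at the lowest, 7132 at the median and 8890 at the highest, and the KI control libraries had 2038, 1480, 1304, 970 and 1135 CPM. Every KI control library lay below every WT control library, a change of -2.29 (SE 0.34, adjusted p = 2.02e-06, edgeR quasi-likelihood). Among libraries of inhibitor-fed mice WT spanned 6145 to 9744 CPM and 9 KI libraries spanned 711.7 to 2210 CPM, while the library labelled KI ASK1i replicate 5 had 7018 CPM. The change there was -1.83 (adjusted p = 6.87e-07) with that library and -2.22 without it. Cyp2e1 fell in both sexes (adjusted p = 4.17e-05 in females and 2.08e-08 in males).

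Of the 8 Cyp3a members 4 fell on control chow and 6 on the inhibitor diet, and none rose. Cyp3a11, the main PXR-responsive drug-metabolising enzyme of this subfamily in mice, came next after Cyp2e1 per length at 2437 ± 796 CPM per kb (SD, 18 WT libraries). The WT control libraries had 3543, 5208 and 8310 CPM at the lowest, median and highest, and the KI control libraries 1507, 2533, 3152, 1051 and 1283 CPM. All 5 lay below the WT range, and Cyp3a11 fell by 1.67 (SE 0.42, adjusted p = 0.00114, edgeR quasi-likelihood). With the L code as a covariate the call was lost on control chow (-0.64, adjusted p = 0.368). With the inhibitor Cyp3a11 fell by 1.40 (adjusted p = 0.000448). Cyp3a25 fell by 1.11 on control chow and by 0.92 on the inhibitor diet. Its call on control chow was lost with the L code (-0.44, adjusted p = 0.506) and in males alone (-0.83, adjusted p = 0.0920).

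Cyp3a41a, known as a female-predominant copy, and Cyp3a16, known mainly from young animals, varied most within the WT groups. Cyp3a41a had 586 to 5225 CPM in the 11 WT female libraries (median 1890) and 2.29 to 3083 CPM in the 7 WT male libraries (median 39.2). In KI libraries it had 3.26 to 390 CPM in females and 0.134 to 4.12 CPM in males. All 6 KI female libraries lay below all WT female libraries, and 8 of 9 KI male libraries lay below all WT male libraries. On control chow Cyp3a41a fell by 4.86 (SE 1.55, adjusted p = 0.00872, edgeR quasi-likelihood). This call was lost with the L code (-4.48, adjusted p = 0.0596), in the plainly numbered libraries alone (-4.45, adjusted p = 0.0750) and in males alone (-3.20, adjusted p = 0.166). On the inhibitor diet it fell by 8.28 (adjusted p = 1.57e-05), with -9.20 without the library labelled KI ASK1i replicate 5, -6.90 without WT ASK1i replicate 4, and -8.96 without WT ASK1i replicate 1P or replicate 2P. Cyp3a16 ran from 0.270 to 107 CPM in WT control and from 0.0999 to 1.30 CPM in KI control libraries, and was called on the inhibitor diet (-6.42, adjusted p = 6.92e-06) but not on control chow (-3.37, adjusted p = 0.0585). Its value on the inhibitor diet was -5.66 without WT ASK1i replicate 4 and -7.20 without KI ASK1i replicate 2P. The genotype difference was not called as different between the diets for either gene.

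The subfamily sum that fell furthest was Cyp2b, which in mouse holds the CAR target Cyp2b10 and 2 copies known to be female-predominant in adults, Cyp2b9 and Cyp2b13. The 150 bases before the annotated start of each of the 3 genes are given because 2 of them are near-identical, while all 3 genes fell in KI on control chow (RefSeq, GRCm38.p6, plus strand of chromosome 7, in lower case, with capitals for the AHR core GCGTG or its reverse complement CACGC).
Cyp2b9, chr7:26173259-26173408: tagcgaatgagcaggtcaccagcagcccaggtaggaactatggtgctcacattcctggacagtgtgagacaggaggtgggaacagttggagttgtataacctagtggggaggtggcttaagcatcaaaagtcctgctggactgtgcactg
Cyp2b13, chr7:26061345-26061494: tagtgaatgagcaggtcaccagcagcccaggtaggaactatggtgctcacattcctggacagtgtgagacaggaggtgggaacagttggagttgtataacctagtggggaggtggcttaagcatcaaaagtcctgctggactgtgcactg
Cyp2b10, chr7:25897508-25897657: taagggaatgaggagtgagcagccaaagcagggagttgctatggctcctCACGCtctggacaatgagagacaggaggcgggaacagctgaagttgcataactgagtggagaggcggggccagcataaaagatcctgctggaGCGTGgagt
Over 250 bases before the start, Cyp2b9 and Cyp2b13 were identical at 248 of 250 aligned positions (99.2%), and either was 71.0% identical to Cyp2b10. Over those 250 bases Cyp2b10 held the AHR core and the other 2 did not, and 28.0% of 27025 mouse promoters of the same length held it.

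Cyp2b9 had 209 CPM at the lowest, 355 at the median and 431 at the highest of the WT control libraries. The KI control libraries had 5.47, 0.796, 0.359, 0.584 and 0.549 CPM, the highest being the 1 female. Cyp2b9 fell by 7.97 (SE 1.66, adjusted p = 0.000177, edgeR quasi-likelihood), with -8.61 without KI control replicate 1. With the inhibitor 9 KI libraries had 0.0870 to 7.18 CPM and the library labelled KI ASK1i replicate 5 had 442 CPM, within the WT ASK1i range of 410 to 691 CPM. The change was -4.49 (adjusted p = 0.000753) with that library and -7.63 without it. Cyp2b9 showed no call between the sexes in WT, with 379 ± 107 CPM in females (SD, n = 11) and 468 ± 161 CPM in males (SD, n = 7).

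Cyp2b13 had 3.57, 96.2 and 252 CPM at the lowest, median and highest of the WT control libraries. The 5 KI control libraries had 0.138, 0.0241, 0.0256, 0.0835 and 0.0250 CPM, which were 5, 1, 1, 3 and 1 counts. All lay below the WT range, with a fitted change of -10.49 (SE 2.31, adjusted p = 0.000335, edgeR quasi-likelihood), a size that depends on the prior count at such levels. The library labelled KI ASK1i replicate 5 had 129 CPM, and on the inhibitor diet the change was -4.34 with it and -9.99 without it. Cyp2b10 had 18.0, 55.8 and 254 CPM at the lowest, median and highest in WT control and 8.90, 13.1, 26.1, 7.46 and 13.4 CPM in KI control libraries. Here 4 of 5 KI control libraries lay below the WT range, and the change was -2.54 (adjusted p = 0.00304). It was -1.18 (adjusted p = 0.360) with the L code as a covariate. With the inhibitor Cyp2b10 fell by 1.31 (adjusted p = 0.0316), and by 1.89 without the library labelled KI ASK1i replicate 5. The call was lost without any 1 of 9 libraries in turn (highest adjusted p = 0.0731) and with the L code (-1.43, adjusted p = 0.0739).

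All 4 Cyp2a members fell on both diets. Cyp2a4 and Cyp2a5 encode a testosterone hydroxylase and a coumarin hydroxylase that differ at few residues, and their transcripts shared 36.1% of the 50-base words of Cyp2a4. Their upstream stretches (RefSeq, GRCm38.p6, plus strand, capitals for TATAAA) are given because these near-identical copies, 97.6% identical over 250 bases, differed in the size of their falls.
Cyp2a4, chr7:26307042-26307191: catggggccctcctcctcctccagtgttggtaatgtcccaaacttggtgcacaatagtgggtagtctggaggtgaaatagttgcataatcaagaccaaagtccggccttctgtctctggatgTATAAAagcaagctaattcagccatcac
Cyp2a5, chr7:26835189-26835338: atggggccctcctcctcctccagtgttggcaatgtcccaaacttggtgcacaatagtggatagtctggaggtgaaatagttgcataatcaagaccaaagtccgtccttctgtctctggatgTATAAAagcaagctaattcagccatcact
Cyp2a4 had 18.9, 133 and 322 CPM at the lowest, median and highest in WT control and 0.801, 0.0241, 0.128, 0 and 0.574 CPM in KI control libraries. The groups did not overlap, and Cyp2a4 fell by 8.12 (SE 1.88, adjusted p = 0.000576, edgeR quasi-likelihood), with -8.86 without KI control replicate 1P and -7.40 without WT control replicate 1P. Among mice fed the inhibitor the change was -4.17 with the library labelled KI ASK1i replicate 5 (399 CPM) and -7.82 without it.

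Cyp2a5 had 145, 370 and 1470 CPM at the lowest, median and highest in WT control and 79.8, 159, 400.2, 121 and 133 CPM in KI control libraries. Here 3 of 5 KI control libraries lay below the WT range, and Cyp2a5 fell by 1.36 (SE 0.50, adjusted p = 0.0218, edgeR quasi-likelihood). That call was lost without WT control replicate 2P, KI control replicate 1, KI control replicate 4 or KI control replicate 1P in turn (highest adjusted p = 0.0864), in the plainly numbered libraries alone (-0.78, adjusted p = 0.243) and in males alone (-1.90, adjusted p = 0.0505). Cyp2a12, a steroid and bile acid hydroxylase, had 377 to 620 CPM in WT control and 153 to 318 CPM in KI control libraries. It fell by 1.10 on control chow (adjusted p = 0.000197) and by 0.83 on the inhibitor diet (adjusted p = 0.000259), where males alone gave -0.64 (adjusted p = 0.0633).

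Of the 13 Cyp2c members tested, 11 fell and 1 rose on control chow, and 12 fell on the inhibitor diet. Many of these enzymes oxidise arachidonic acid or retinoids. Cyp2c29, an arachidonic acid epoxygenase, had 141, 299 and 1324 CPM at the lowest, median and highest in WT control and 113, 110, 131, 85.3 and 54.2 CPM in KI control libraries. All 5 lay below the WT range, and Cyp2c29 fell by 2.62 (SE 0.60, adjusted p = 0.000524, edgeR quasi-likelihood). Cyp2c29 also fell with the inhibitor, by 1.85 (adjusted p = 0.00101), and in the plainly numbered libraries alone it was at -1.21 (adjusted p = 0.0646). Leaving out each library in turn gave -2.39 to -1.61 for Cyp2c29 on that diet. Cyp2c50, also an epoxygenase, had 405 to 1016 CPM in WT control and 81.7 to 235 CPM in KI control libraries and fell by 2.13 (adjusted p = 0.000387). Cyp2c39, which oxidises retinoic acid, fell by 1.38 (adjusted p = 0.000605), from 5.71 to 22.8 CPM in WT control to 2.12 to 5.33 CPM in KI control libraries. Cyp2c55 was at 1.47 ± 1.82 CPM (SD, n = 10) in WT control and 1.26 ± 0.846 CPM (SD, n = 5) in KI control libraries, and its change on control chow was -0.41 (adjusted p = 0.591). On the inhibitor diet it fell by 1.77 (adjusted p = 0.00284), a call lost in the plainly numbered libraries alone (-0.86, adjusted p = 0.230) and in males alone (-1.72, adjusted p = 0.0556).

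Cyp2c69 and Cyp2c70 lie in the same stretch of chromosome 19, with other Cyp2c genes between them, and moved in opposite directions. Both upstream stretches hold the letters CAAAGTCCA, an HNF4 site (RefSeq, GRCm38.p6, minus strand, read 5′ to 3′ on that strand; capitals for CAAAGTCCA and for TATAAA or its reverse complement).
Cyp2c69, chr19:39886770-39886919: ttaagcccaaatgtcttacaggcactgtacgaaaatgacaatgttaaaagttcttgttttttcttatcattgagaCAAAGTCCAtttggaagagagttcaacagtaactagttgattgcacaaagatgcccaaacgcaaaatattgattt
Cyp2c70, chr19:40187287-40187436: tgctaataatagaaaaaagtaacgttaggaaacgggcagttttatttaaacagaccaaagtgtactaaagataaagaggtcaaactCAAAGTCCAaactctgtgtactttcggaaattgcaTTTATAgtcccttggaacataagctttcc
Cyp2c69 (chr19:39842660-39886769) had 45.9, 230 and 909 CPM at the lowest, median and highest in WT control and 19.4, 0.724, 0.410, 1.22 and 0.424 CPM in KI control libraries, the highest again in the 1 female. The groups did not overlap. Cyp2c69 fell by 6.12 (SE 0.88, adjusted p = 1.42e-06, edgeR quasi-likelihood), and the value was -7.54 without KI control replicate 1. Under the inhibitor it fell by 6.54 (adjusted p = 4.91e-09), with -7.17 without the library labelled KI ASK1i replicate 5, which at 22.0 CPM lay below all WT ASK1i libraries in this gene.

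Cyp2c70, the enzyme that makes muricholic acids in mouse bile, rose. It had 121, 272 and 393 CPM at the lowest, median and highest in WT control and 534, 440, 654, 598 and 577 CPM in KI control libraries, with no overlap. The rise was 0.97 (SE 0.21, adjusted p = 0.000265, edgeR quasi-likelihood), and 0.43 (adjusted p = 0.202) with the L code as a covariate. With the inhibitor WT libraries had 310 ± 86.5 CPM (SD, n = 8) and KI libraries 411 ± 81.6 CPM (SD, n = 10), a difference of 0.36 (adjusted p = 0.0917). Cyp2c70 was called in females (0.93, adjusted p = 0.000247). Its call in males (0.44, adjusted p = 0.0430) was lost without any 1 of 7 libraries in turn (highest adjusted p = 0.0970) and with the L code (0.19, adjusted p = 0.402).

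Of the 9 Cyp2d members tested, 7 fell and 1 rose on control chow, by less than most Cyp2c members. Cyp2d10 had 459, 550 and 682 CPM at the lowest, median and highest in WT control and 310, 240, 285, 276 and 253 CPM in KI control libraries. It fell by 1.03 (SE 0.15, adjusted p = 1.32e-06, edgeR quasi-likelihood), with no overlap between the groups. Cyp2d26 fell by 0.58 (adjusted p = 0.000925), from 733 ± 96.8 CPM (SD, n = 10) to 476 ± 59.8 CPM (SD, n = 5). Cyp2d12 rose from a low level, with 0.0660 to 0.699 CPM in WT control and 7.24, 1.88, 2.28, 2.42 and 1.75 CPM in KI control libraries. Its change was 3.29 (SE 0.52, adjusted p = 4.66e-06), and 2.57 (adjusted p = 0.000552) without KI control replicate 1. Cyp2d9, a male-predominant testosterone hydroxylase that shares sequence with Cyp2d12, was not called on control chow (0.47, adjusted p = 0.383) and rose on the inhibitor diet (1.64, adjusted p = 0.00152).

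All 4 Cyp2j members fell on control chow and 3 fell on the inhibitor diet. Cyp2j5 had 288, 411 and 705.9 CPM at the lowest, median and highest in WT control and 124, 149, 168, 183 and 275 CPM in KI control libraries, without overlap. It fell by 1.44 (SE 0.24, adjusted p = 1.28e-05, edgeR quasi-likelihood), and on the inhibitor diet, where all 10 KI libraries lay below the WT range, by 1.54. Cyp2j6 fell by 0.51 and 0.74 on the respective diets, with the KI control libraries between 38.4 and 44.9 CPM. Cyp2j9 fell by 1.15 on control chow (adjusted p = 0.000197), a call lost with the L code (-0.76, adjusted p = 0.106). On the inhibitor diet it fell by 0.51 (adjusted p = 0.0250), a call lost with the L code (-0.19), without TMM scaling (-0.43), in males alone (-0.57) and without 5 libraries in turn (highest adjusted p = 0.0647).

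Among the subfamilies with 1 gene, Cyp2f2, which activates naphthalene, fell most. It had 47.3, 228 and 921 CPM at the lowest, median and highest in WT control and 9.98, 14.8, 39.7, 37.7 and 77.6 CPM in KI control libraries, of which 4 lay below the WT range. Cyp2f2 fell by 3.47 on control chow (SE 0.87, adjusted p = 0.00124, edgeR quasi-likelihood). Under the inhibitor the change was -1.78 with the library labelled KI ASK1i replicate 5 (888 CPM) and -3.37 without it, and the plainly numbered libraries alone gave -1.58 (adjusted p = 0.116). Cyp2u1, a fatty acid hydroxylase, fell by 1.70 (adjusted p = 7.95e-05) from 4.67 ± 2.14 CPM (SD, n = 10) to 1.72 ± 0.794 CPM (SD, n = 5). Cyp2g1, best known from the olfactory mucosa, fell by 1.37 (adjusted p = 0.0130) from 2.55 ± 1.13 CPM to 1.08 ± 0.552 CPM (SD, n = 10 and 5), a call lost without KI control replicate 1P (adjusted p = 0.0512) and with the L code (-1.66, adjusted p = 0.0537). Cyp2r1, the vitamin D hydroxylase, was at 10.4 ± 4.06 CPM (SD, n = 10) in WT control and 12.2 ± 3.42 CPM (SD, n = 5) in KI control libraries (0.01, adjusted p = 0.967). Cyp2s1 was at 0.495 ± 0.187 CPM (SD, n = 10) in WT control and 0.913 ± 0.497 CPM (SD, n = 5) in KI control libraries and was called on neither diet.

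In family 1, the AHR targets Cyp1a1 and Cyp1a2 were not called on control chow. Cyp1a2, which metabolises caffeine and arylamines, had 143, 241 and 464 CPM at the lowest, median and highest in WT control and 110, 259, 220, 127 and 228 CPM in KI control libraries. These ranges overlapped (-0.62, SE 0.32, adjusted p = 0.0988, edgeR quasi-likelihood). Cyp1a2 on the inhibitor diet was lower in KI (-0.83, adjusted p = 0.00642), a call lost in the plainly numbered libraries alone (-0.66, adjusted p = 0.0701). Cyp1a1 was at 0.848 ± 0.504 CPM (SD, n = 10) in WT control and 1.32 ± 0.909 CPM (SD, n = 5) in KI control libraries. Cyp1b1, which oxidises oestradiol and is expressed mostly outside hepatocytes, rose: WT control libraries had 0.706 to 1.75 CPM and KI control libraries 6.77, 7.45, 4.00, 2.45 and 3.97 CPM. The groups did not overlap, and the rise was 2.18 (SE 0.37, adjusted p = 1.57e-05) on control chow and 2.60 (adjusted p = 3.64e-07) on the inhibitor diet.

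Genes that serve or regulate these enzymes were taken from lists. Of 13 partner genes tested (oxidoreductase, cytochrome b5 and haem synthesis) 10 fell and 1 rose on control chow. Of all genes tested 28.9% fell and 27.8% rose there, shares that also apply to the other list counts in this paragraph. Pgrmc1, a haem-binding partner of P450 enzymes, fell by 1.08 and Cpox, a haem synthesis enzyme, fell by 1.76, whereas Hmox1, which breaks haem down, rose by 1.43 (log2). Of 18 regulators 9 fell and 2 rose. The CAR gene Nr1i3 had 95.6 to 229 CPM in WT control and 80.1, 36.1, 78.3, 48.2 and 40.7 CPM in KI control libraries, and Ppara fell by 1.38. Of 15 genes of growth hormone signalling and sex difference 7 fell and 2 rose, among them the growth hormone receptor Ghr (-1.40), and the prolactin receptor Prlr went from 282 ± 62.5 CPM (SD, n = 10) to 43.1 to 101 CPM. Of the 26 P450 genes of other families 17 fell and 4 rose. None of the genes on the partner, regulator and growth hormone lists was called between the diets in either genotype. Few genes were called there at all: 1.13% higher and 0.268% lower in WT, and 0.0536% in either direction in KI.

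The sexes were next compared within each genotype, over both diets. In WT 4 members were higher and 1 lower in males, where 0.951% and 0.904% of all genes were. Cyp2d9 had 12.1, 94.1 and 158 CPM at the lowest, median and highest of the 11 WT female libraries and 117, 347 and 823 CPM in the 7 WT male libraries. It was higher in males by 2.38 (SE 0.37, adjusted p = 0.000413, edgeR quasi-likelihood), with an overlap of the ranges between 117 and 158 CPM. Cyp2c55 (1.86), Cyp2u1 (0.94) and Cyp2r1 (0.59) were higher and Cyp2c39 (-1.01) was lower in WT males. Each of these 4 calls was lost without any 1 of 10 to 16 libraries in turn, and with the L code as a covariate. Leaving out the library labelled KI ASK1i replicate 5, 8 members were higher and 2 lower in WT males (1.94% and 1.92% of all genes), among them Cyp2c29 (1.42, adjusted p = 0.0247, edgeR quasi-likelihood), Cyp2c70 (0.61, adjusted p = 0.0453) and Cyp2f2 (1.33, adjusted p = 0.0367). With it these were at 1.43 (adjusted p = 0.0644), 0.60 (adjusted p = 0.0754) and 1.41 (adjusted p = 0.205). Leaving out any 1 of 7 other libraries left 1 call. The share of all genes is not given for those refits, so that count is not a result about the members alone.

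In KI libraries 6 members were lower and none higher in males, where 0.114% and 0.0737% of all genes were. These were Cyp2b13 (-8.01), Cyp3a41a (-7.67), Cyp2a4 (-6.75), Cyp2b9 (-5.29), Cyp2c69 (-3.17) and Cyp2c40 (-3.12), the last chosen after its values were seen. Without the library labelled KI ASK1i replicate 5, itself from a female, Cyp3a41a (-6.86, adjusted p = 0.0212, edgeR quasi-likelihood) and Cyp2c40 (-2.16, adjusted p = 0.0212) were called (0.1% of all genes were lower), and Cyp2b9 (-2.03, adjusted p = 0.128), Cyp2a4 (-2.62, adjusted p = 0.250), Cyp2b13 (-2.23, adjusted p = 0.599) and Cyp2c69 (-2.54, adjusted p = 0.0983) were not. Cyp2c69 also lost its call without KI control replicate 1 (-2.51, adjusted p = 0.286). The calls of Cyp2b9, Cyp2a4 and Cyp2b13 were lost without any 1 of 5, 6 and 8 libraries in turn, that of Cyp2b9 also with the L code (-4.82, adjusted p = 0.0778), and limma-voom called none of the 6. Without the library labelled KI ASK1i replicate 5, Cyp2b9 was at 4.54 ± 2.23 CPM (SD, n = 5) in KI females and 1.16 ± 2.15 CPM (SD, n = 9) in KI males, both far below the WT libraries of either sex. Called values of Cyp3a41a and Cyp2a4 also moved by over 1.5-fold without KI control replicate 1, to -8.40 and -7.44, that of Cyp2b13 to -8.92, and that of Cyp2b9 to -6.95 without KI ASK1i replicate 1. Cyp3a41a moved to -6.96 without KI ASK1i replicate 2P.

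**Figure D2:**
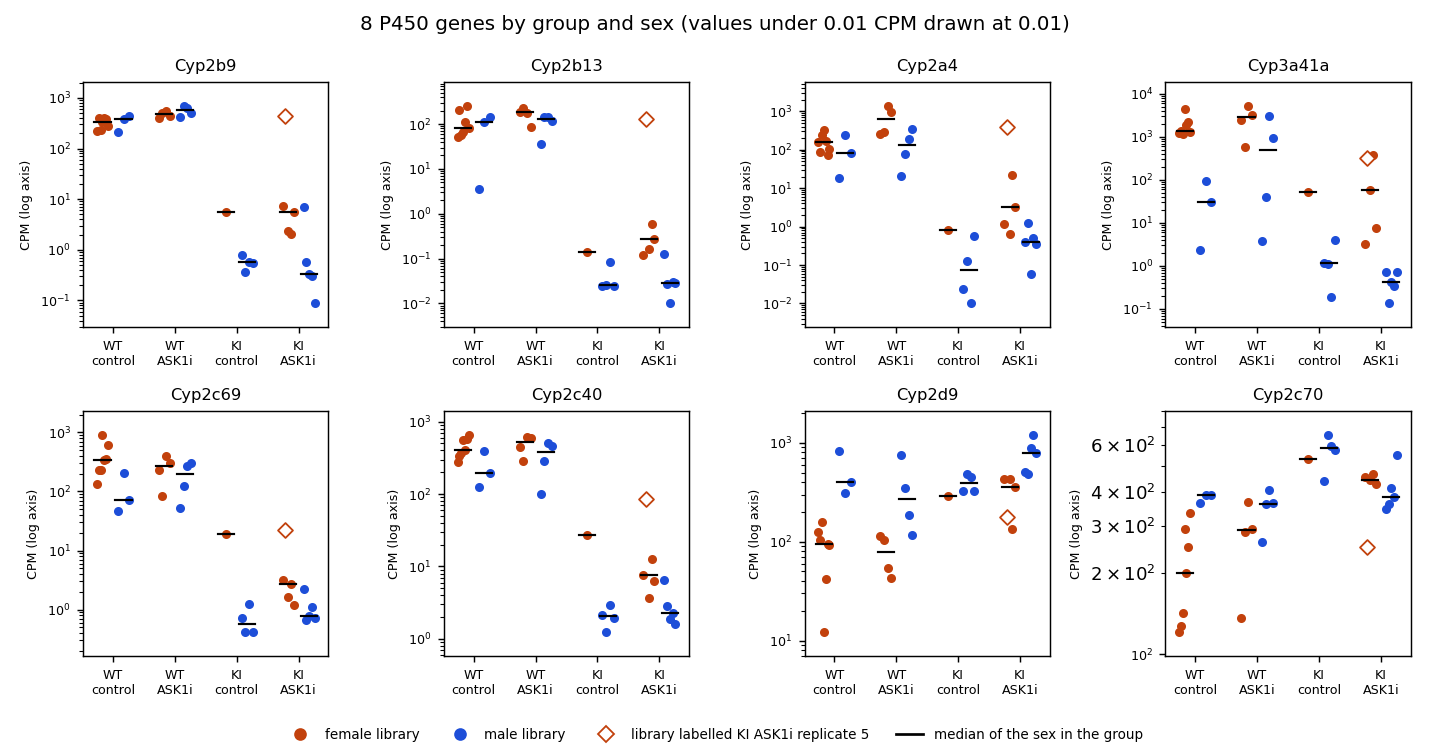
CPM in each library on a log scale for 8 members, by group and sex; points are libraries coloured by sex, the open diamond is the library labelled KI ASK1i replicate 5, and lines are medians of each sex in a group. Cyp2d9 is higher in WT males (117 to 823 CPM) than in most WT females (12.1 to 158 CPM), and Cyp3a41a stays at or under 4.12 CPM in the 9 KI male libraries.

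The difference between the sexes was not called as different between the genotypes for any member (0.0067% of all genes were called), with 16 of 50 members at an unadjusted p under 0.05 (8.81% of all genes). There were 10 such members without the library labelled KI ASK1i replicate 5 (9.82% of all genes). DESeq2 called 3 (0.482% of all genes), all more negative in KI. The genotype difference was then taken within each sex. In females 35 members fell and 4 rose (25.8% and 26.4% of all genes), in males 38 fell and 3 rose (30.9% and 30.7%). Cyp2b9 fell by 3.55 in females, with -9.16 in males, and without the library labelled KI ASK1i replicate 5 the values were -6.54 and -8.78. Without KI ASK1i replicate 1 the values were -2.77 and -10.03. The Cyp2b sum in females went from -2.70 to -4.61 without the library labelled KI ASK1i replicate 5. In females Cyp2d9 rose by 1.79 (adjusted p = 0.000545, edgeR quasi-likelihood), from 85.8 ± 43.3 CPM (SD, n = 11) to 306 ± 128 CPM (SD, n = 6). In males it was at 420 ± 269 CPM (SD, n = 7) in WT and 607 ± 294 CPM (SD, n = 9) in KI, a change of 0.41 (adjusted p = 0.374).

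**Figure D3:**
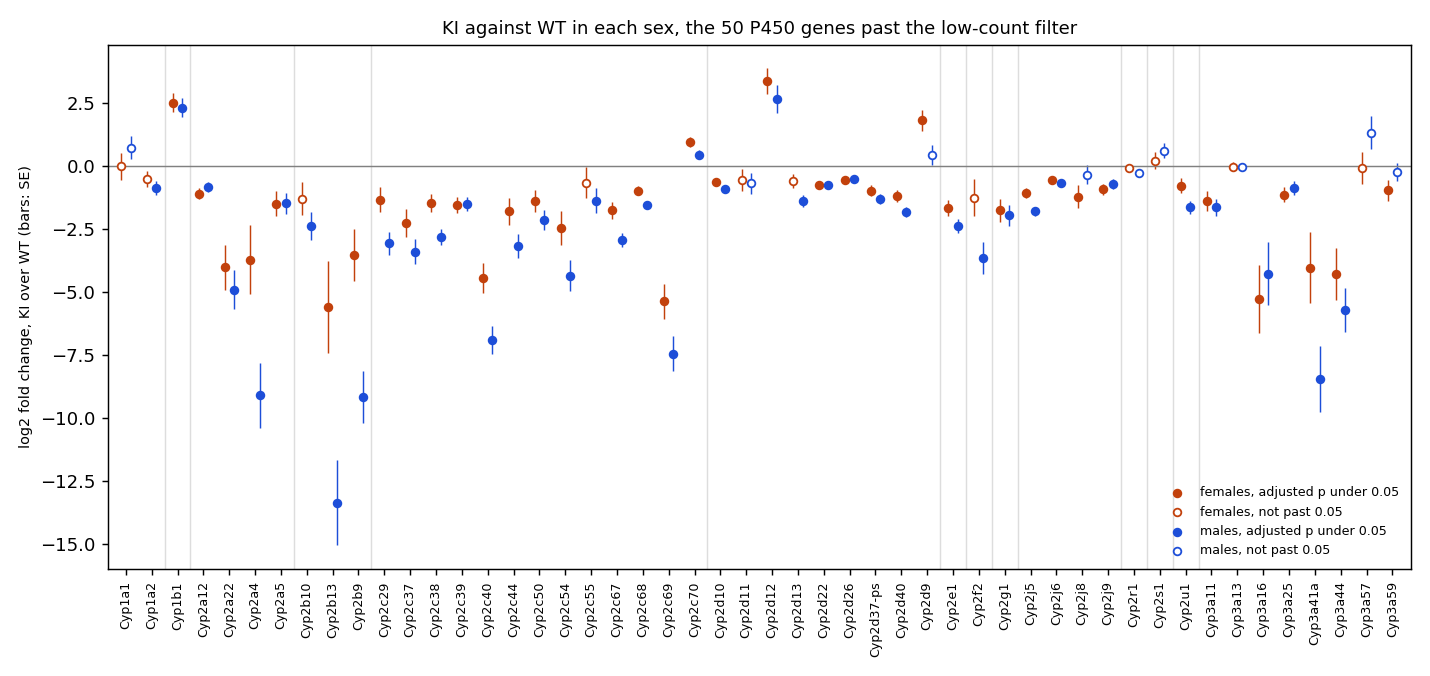
Log2 fold change of KI against WT over both diets in females and in males for the 50 members tested, ordered by subfamily; bars are SE, filled points have an adjusted p under 0.05 and open points do not. Most points lie below 0, down to -13.36 for Cyp2b13 in males, and Cyp1b1, Cyp2d12 and Cyp2c70 lie above 0 in both sexes.

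Some values within a sex rested on single libraries. Without the library labelled KI ASK1i replicate 5, the change in females went from -3.73 (adjusted p = 0.0230, edgeR quasi-likelihood) to -7.47 for Cyp2a4, from -5.60 (adjusted p = 0.0113) to -9.44 for Cyp2b13, from -1.35 (adjusted p = 0.0234) to -1.96 for Cyp2c29 and from -4.05 (adjusted p = 0.0175) to -4.95 for Cyp3a41a, each called both ways. Cyp2b10 and Cyp2f2 were called in females once that library was left out, at -2.20 (adjusted p = 0.00593) and -3.43 (adjusted p = 3.27e-06), whereas all libraries gave uncalled values of -1.31 (adjusted p = 0.0915) and -1.28 (adjusted p = 0.142). In males, where it does not enter the groups but does enter the shared fit, the change of Cyp2b13 went from -13.36 to -11.03. In females, without KI control replicate 1, Cyp2a4 (adjusted p = 0.132), Cyp2b13 (-2.65, adjusted p = 0.448, edgeR quasi-likelihood), Cyp3a41a (adjusted p = 0.0819), Cyp2a5 (adjusted p = 0.0760), Cyp2c29 and Cyp2u1 lost their calls, and 31 members were called (40.9% of all genes). In the plainly numbered libraries alone 17 members fell and 4 rose in females (11.1% and 18.0% of all genes). In males Cyp3a16 fell by 4.29 (adjusted p = 0.00407) and by 2.60 (adjusted p = 0.0539) without WT ASK1i replicate 4, the same library without which the change of Cyp3a41a was -7.28 in place of -8.47. Cyp2c55 fell by 1.38 in males (adjusted p = 0.0212), a call lost without any 1 of 4 libraries in turn (highest adjusted p = 0.0834) and with the L code (-1.46, adjusted p = 0.0956).

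The inhibitor diet was compared with control chow within each genotype. In WT 3 members rose and none fell, where 1.13% and 0.268% of all genes did. Cyp1a2 had 143, 241 and 464 CPM at the lowest, median and highest in WT control and 456, 681 and 1017 CPM in WT ASK1i libraries, of which 7 of 8 lay above all WT control libraries. It rose by 1.26 (SE 0.26, adjusted p = 0.00788, edgeR quasi-likelihood), as did the Cyp1a sum (1.25, SE 0.26, adjusted p = 0.00826), the 1 of the 8 sums to be called (1.29% of all entries of that table). The Cyp2a sum was called too without the library labelled KI ASK1i replicate 5, at 1.07 (adjusted p = 0.0224) in place of 1.09 (adjusted p = 0.0527). With the L code as a covariate Cyp1a2 was at 1.23 (adjusted p = 0.156), in males alone at 0.79 (adjusted p = 1) and in the plainly numbered libraries alone at 1.26 (adjusted p = 0.0994), none of them called.

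Cyp2a5 had 145, 370 and 1470 CPM at the lowest, median and highest in WT control and 566, 1243 and 3585 CPM in WT ASK1i libraries, with 4 of 8 above all WT control libraries. It rose by 1.60 (SE 0.39, adjusted p = 0.0321, edgeR quasi-likelihood). The call was lost without any 1 of 8 libraries in turn (highest adjusted p = 0.105), with the L code (1.38, adjusted p = 0.293), in males alone (0.36, adjusted p = 1) and by limma-voom (1.58, adjusted p = 0.0516). Cyp2r1 rose by 0.66 (SE 0.15, adjusted p = 0.0152), from 10.4 ± 4.06 CPM (SD, n = 10) to 17.4 ± 4.24 CPM (SD, n = 8). Its call was lost without WT ASK1i replicate 2P (adjusted p = 0.0523) and with the L code (0.44, adjusted p = 0.473). Without the library labelled KI ASK1i replicate 5, which enters the shared estimate of the spread, 7 members were called higher and 1 lower (2.06% and 0.456% of all genes), with Cyp2j6 (0.29) and Cyp2c39 (0.86) among those higher. Without WT ASK1i replicate 2P 1 member was called (0.731% of all genes), and with the L code none (0.154%).

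In KI no member was called between the diets by edgeR (0.0536% of all genes were), with 16 of 50 at an unadjusted p under 0.05 (10.3% of all genes), and DESeq2 called 3 (0.248% of all genes), all higher. The median log2 fold change was 0.40 over the members and 0.03 over all genes. It was 0.17 over the members and 0.01 over all genes without the library labelled KI ASK1i replicate 5, with 10 members at an unadjusted p under 0.05 (8.88% of all genes). Cyp1a2 had 110, 259, 220, 127 and 228 CPM in KI control libraries and 117, 382 and 622 CPM at the lowest, median and highest in KI ASK1i libraries, of which 8 of 10 lay above all KI control libraries. Its change was 1.05 (SE 0.32, adjusted p = 0.365, edgeR quasi-likelihood), and 1.03 without the library labelled KI ASK1i replicate 5. Cyp2c29 was at 98.6 ± 29.6 CPM (SD, n = 5) in KI control and 348 ± 341 CPM (SD, n = 10) in KI ASK1i libraries (2.07, SE 0.59, adjusted p = 0.349). The library labelled KI ASK1i replicate 5 had 1123 CPM of Cyp2c29 and raises that mean. The other KI ASK1i libraries had 98.9 to 801 CPM. The changes of Cyp2b9 and Cyp2b13 went from 4.18 and 6.57 to 0.86 and 0.96 when the library labelled KI ASK1i replicate 5 was left out.

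The difference between the diet changes of the genotypes was not called for any member (0% of all genes), with 5 of 50 at an unadjusted p under 0.05 (8.38% of all genes). Together the members took 2.78% ± 0.396 (SD, n = 8) of counts in WT ASK1i libraries. They took 1.03% ± 0.574 (SD, n = 10) in KI ASK1i libraries, and 0.862% ± 0.252 (SD, n = 9) without the library labelled KI ASK1i replicate 5, which itself had 2.51%.

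**Figure D4:**
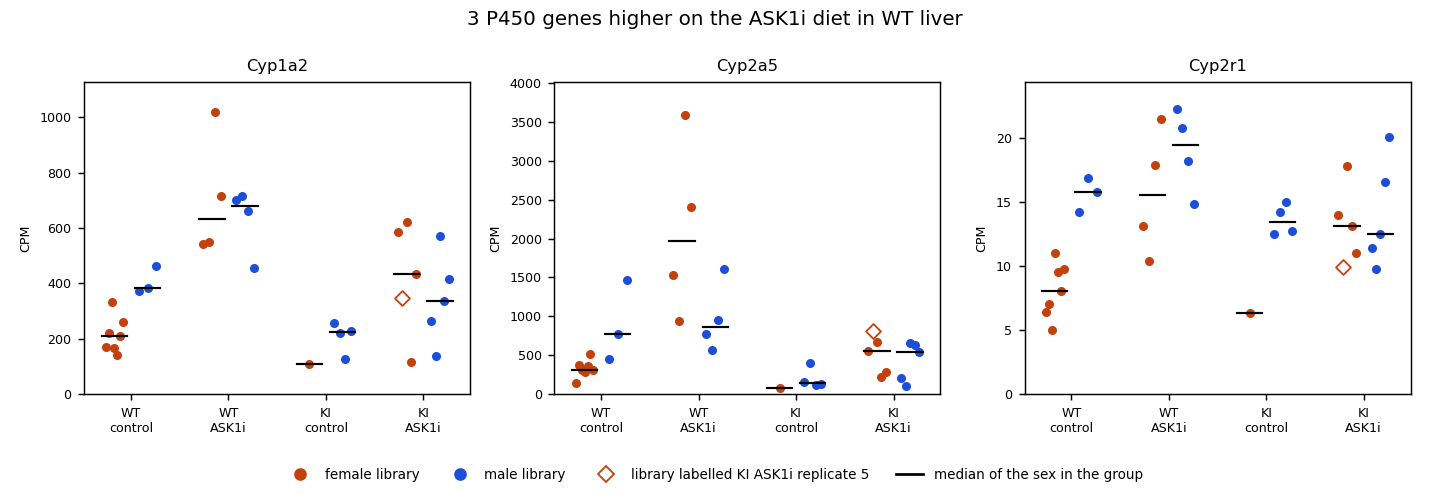
CPM in each library on a linear scale for the 3 members called between the diets in WT, by group; points are libraries coloured by sex, the open diamond is the library labelled KI ASK1i replicate 5, and lines are medians of each sex in a group. Cyp1a2 spans 456 to 1017 CPM in WT ASK1i against 143 to 464 CPM in WT control libraries, and 117 to 622 CPM in KI ASK1i against 110 to 259 CPM in KI control libraries.

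Among the 18 WT libraries the order of members by level per length was Cyp2e1, Cyp3a11, Cyp3a41a (792 ± 756 CPM per kb, SD), Cyp2c29 (500.1 ± 412), Cyp2a5 (480 ± 440), Cyp2d26 (452 ± 57.1) and Cyp2c50 (430 ± 144). From Cyp3a41a onward neighbours in this order differed by less than their SD. Of 50 members matched to a transcript, 16 shared over 20% of their 50-base words with another member and 14 shared none. The most shared was Cyp2c40, at 72.1%, named here for that value after it was seen, followed by Cyp2c69 at 54.8%. How RSEM divided reads between such copies bears on each of them, and less on the subfamily sums.

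Upstream sequences were found for 43 of the 53 members (RefSeq, GRCm38.p6, 250 bases before the start). For 34 of these the first 30 transcribed bases lay in an annotated transcript of the gene. The HNF4 letters CAAAGTCCA were in 9 of the 43 (20.9%) and in 0.400% of 27025 promoters of the same length, both strands searched, and TATAAA was in 23 (53.5%) against 12.9%. These members are not independent, as some are close copies. Of the 9, Cyp2c68 and Cyp2c69 were 91.3% identical, as were Cyp3a16 and Cyp3a41a, while Cyp2c65 and Cyp2c70 were 49.2% identical. The shares of members therefore count some copies more than once. The AHR core GCGTG was in 5 (11.6%, against 28.0%), the letters TTCNNNGAA of a STAT site in none (against 7.11%), the HNF1 site in none (against 0.0111%) and the E-box CACGTG in 1, Cyp2j6 (against 5.93%). The stretches of Cyp3a11 and Cyp3a41a are given because both hold the HNF4 letters, at different places, while their levels in WT males differed widely (minus strand, capitals for CAAAGTCCA and TATAAA, no matches overlapping).
Cyp3a11, chr5:145879855-145880004: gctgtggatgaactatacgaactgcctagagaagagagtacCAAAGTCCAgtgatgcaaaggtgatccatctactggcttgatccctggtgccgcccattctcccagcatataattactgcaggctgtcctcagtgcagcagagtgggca
Cyp3a41a, chr5:145720137-145720286: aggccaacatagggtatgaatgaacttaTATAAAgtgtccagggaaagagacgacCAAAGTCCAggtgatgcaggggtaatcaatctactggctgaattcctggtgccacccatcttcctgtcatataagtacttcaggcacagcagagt
The 2 stretches were 72.9% identical over 250 bases. The HNF4 letters stood before Cyp3a11 and Cyp3a41a, which fell, before Cyp2c69, which fell, and before Cyp2c70, which rose. A match is a description of the letters and not of a bound factor.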

How the data were processed

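Poly-A RNA of fresh frozen mouse livers was sequenced as 33 libraries with a stranded kit, per the labels' protocols. The authors deposited RSEM expected counts per gene, which were rounded to whole numbers. CASAVA 1.8.2, STAR 2.4, RSEM 1.2.14 and build mm10 are named per the submitters' processing notes, and for annotation and settings the sources used here give nothing. RSEM divides reads between near-identical copies, which affects single members more than sums. Groups, sex, title set and L code came from the labels.

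Genes were filtered by group with filterByExpr in edgeR 4.0.16 (R 4.3.3), scaled by the trimmed mean of M-values and fitted over all 33 libraries with robust quasi-likelihood tests, 2-sided, with Benjamini-Hochberg adjustment over 14934 genes, a threshold of 0.05 and a prior count of 0.125. One model had the 4 groups with sex and title set as covariates, and the other had genotype by sex with diet in each genotype. Summed subfamilies were fitted in place of their members. The SE was taken from the fold change and its F statistic. The tests were checked on simulated data. Alternatives were DESeq2 1.42.0, limma-voom (limma 3.58.1), other filters, scalings and covariates, subsets of libraries, a replicate block and leaving out each library. The covariates column prefix and sex within genotype were added after seeing the data. No library repeated another of its group: chi-square per gene was at least 22.7 in each of 128 pairs.

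Members and lists were chosen with earlier results of these data known. Named were the 3 members of highest mean level in each subfamily and all members of subfamilies with 1 gene. So were the 3 largest called rises and falls at a mean of at least 1 CPM in each comparison. Every member called between diets or in an interaction was named as well. From some gene lists, a part of the 4 genes with the smallest p-values in KI against WT on control chow was named. Upstream sequences were matched by symbol and aligned with Biopython 1.88.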

Additional observations from a re-analysis of the deposited data

Results flagged for a closer look

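In 39 of 156 groups of 5 to 10 libraries, the highest or lowest library stood further from the rest than Dixon's 95% limit. Chance passes that limit in about 1 group in 20 only for independent, normally distributed values. Here CPM were used without a log, the sexes were mixed, and sums stood beside their own members. The 39 therefore cannot be set against that rate. No cause was tested.

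Of the 39, 16 were in KI ASK1i, and 14 of these were the library labelled KI ASK1i replicate 5. It was highest at 826 CPM for the Cyp2b sum and 4497 CPM for the Cyp2c sum. Among single genes it had 442 CPM of Cyp2b9, 129 CPM of Cyp2b13, 256 CPM of Cyp2b10 and 399 CPM of Cyp2a4. It had 22.5 CPM of Cyp2c39, 22.0 CPM of Cyp2c69, 653 CPM of Cyp2d10 and 942 CPM of Cyp2d26. It also had 7018 CPM of Cyp2e1, 888 CPM of Cyp2f2, 56.1 CPM of Cyp2j6 and 919 CPM of Cyp3a25. The other 2 in KI ASK1i were replicate 6 with 2.91 CPM of Cyp2g1 and replicate 2P with 3.39 CPM of Cyp3a16.

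In KI control 7 values stood apart, 6 of them in replicate 1, the 1 female. That library had 5.47 CPM of Cyp2b9, 19.4 CPM of Cyp2c69, 7.24 CPM of Cyp2d12, 1.30 CPM of Cyp3a16 and 52.6 CPM of Cyp3a41a, all the highest of the group, and 6.33 CPM of Cyp2r1, the lowest. Replicate 3 had the highest Cyp2a5, at 400.2 CPM.

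In WT ASK1i 10 values stood apart. Replicate 2 had 10749 CPM of Cyp3a11, 3048 CPM of Cyp2c29, 1068 CPM of Cyp2f2, 749 CPM of Cyp2d9, 7.66 CPM of Cyp2u1 and 2504 CPM for the Cyp2d sum. Replicate 1P had 1017 CPM of Cyp1a2 and 1019 CPM for the Cyp1a sum, replicate 2P had 426 CPM of Cyp2c50 and replicate 6 had 1.29 CPM of Cyp2s1. In WT control 6 values stood apart. Replicate 2P had 1470 CPM of Cyp2a5, 5.79 CPM of Cyp2c55 and 2197 CPM for the Cyp2a sum, replicate 4 had 107 CPM of Cyp3a16 and 4398 CPM of Cyp3a41a, and replicate 8 had 823 CPM of Cyp2d9.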

How the results depend on the processing

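No result reversed under the alternatives run, and all counts of members and sums in KI against WT on either diet and in males stayed within 1.5 times. The counts below moved, and the cause was not tested. The share of all genes called also moved with the setting, so a changed count is not a result about the members alone. By DESeq2, 3 members were called for the diet in KI (0 by edgeR), 8 for the diet in WT (3 by edgeR) with 2 sums, 3 for genotype by sex (0 by edgeR), 10 between the sexes in WT (5 by edgeR) and 1 sum between the sexes in KI. With the groups compared alone, 12 members and 3 sums were called for the diet in WT, and without sex as a covariate 2 sums. With the L code, males alone or plainly numbered titles alone, 0 members and 0 sums were. Plainly numbered titles alone gave 21 members and 3 sums in KI against WT females (39 and 7 in the full set) and 2 members between the sexes in WT, where the L code gave 1 and no title set 2. With the column prefix 1 sum was called between the sexes in WT. Between the sexes in KI, limma-voom called 0 members (6 by edgeR).

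Of 37 same-numbered pairs of libraries from different groups 14 correlated above 0.1 (median r 0.0220, from -0.208 to 0.361), as did 70 of 363 other pairs (median -0.00573). These correlations do not settle whether the numbers pair the libraries, and the main models did not pair them. With a replicate block 0 members were called between the sexes in KI and 1 in WT.

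Leaving out each library in turn gave 37 to 41 members called in KI against WT on control chow, 40 to 43 on the inhibitor diet, 31 to 42 in females and 39 to 42 in males. It gave 1 to 8 for the diet in WT, 0 to 0 for the diet in KI and both interactions, 1 to 10 between the sexes in WT and 2 to 6 in KI. The 8 sums given in the report ranged over 7 to 7, 7 to 8, 7 to 7, 8 to 8 and 1 to 2 in the first 5 of these, and 0 to 0 otherwise. The share of all genes moved too. For the diet in WT it was 1.13% higher and 0.268% lower in the full set. Without the library labelled KI ASK1i replicate 5 it was 2.06% and 0.456%. Over all refits of the gene results, 5270 refits left the call as it was and 238 lost it, and over those of the sums 1367 and 13. Without TMM scaling the split of all genes on control chow moved from 4145 higher and 4321 lower to 5016 and 2905. Genes at a few counts, such as Cyp2b13 in KI, give fold changes that depth limits.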
